A study of Mus musculus with 7 samples.

Results

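The receptors, carriers and carrier chaperone through which cells sense and take up short-chain fatty acids were followed by RNA sequencing of bulk samples whose label is CD8+ T cells. The set was chosen by name and held 8 genes, all of them present among the 56422 gene symbols of the deposited table. They were the receptors Ffar2, Ffar3 and Hcar2, the carriers Slc16a1, Slc16a3, Slc16a7 and Slc5a8, and Bsg. The cells were taken from the ascites of mice modelling peritoneal metastasis. There were 3 libraries from mice given propionate together with butyrate (treated) and 4 from untreated mice (control). The sources used here give no strain, age, dose, tumour line or sorting step, and do not say whether each library came from its own animal. P-values therefore measure the spread between these libraries, which may be technical. Values are TPM (transcript abundance corrected for length and brought to a common sum per library), so sequencing depth was unknown and no counting interval could be given.

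Propionate and butyrate are made by gut bacteria from fibre and enter cells as small monocarboxylates. Carriers of the SLC16 family move them across the membrane together with a proton, in either direction, along with lactate and pyruvate, and Slc5a8 takes them up together with sodium. Basigin, the product of Bsg, is a single-pass membrane protein that brings the SLC16 carriers MCT1 and MCT4 to the cell surface. Ffar2, Ffar3 and Hcar2 are G protein-coupled receptors, best known in myeloid cells, adipose tissue and gut, that signal mainly through inhibitory G proteins. Once inside the cell, butyrate also acts on histone deacetylases, so that a carrier without a receptor can still admit an active compound.

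The libraries differed in their mix of cell markers, which bears on every level given here. The summed TPM of 12 T cell markers was 592 to 2441 in treated libraries, against 107 to 210 in controls, and all 12 were higher in treated libraries by limma. The summed TPM of 11 macrophage markers was 3324 to 4054 in treated libraries, against 6120 to 14820 in controls. Apoe weighed most in that sum, at 1417 to 2316 TPM in treated and 3741 to 8468 TPM in control libraries. Lyz2 came next and overlapped, at 1065 to 1656 against 1431 to 4112 TPM. Only 5 of the 11 had all treated libraries below all controls, as had 25.7% of all tested genes. Adgre1 had a log2 fold change of 0.14. Cd8a, which defines the labelled cells, was at 113, 242 and 54.3 TPM in treated libraries, against 15.6, 14.8, 7.95 and 18.0 TPM in controls, while the macrophage gene Apoe was between 1417 and 8468 TPM in all 7 libraries. The highest macrophage sum was that of control replicate 3, in which all 11 macrophage markers and 6 of the 7 neutrophil markers had their highest value of the 7 libraries. The sum of 8 epithelial and mesothelial markers was 815 to 1534 in treated libraries, against 2152 to 2672 in controls. The third treated library held 33.0% of its TPM in mitochondrially encoded genes, against 13.6% to 18.3% in the other 6. In such bulk samples, fewer cells of a type and less RNA per cell cannot be told apart.

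The 8 genes spanned a wide range of levels in TPM. Bsg was the highest in all 7 libraries, with a mean above that of 97.8% of the 14967 genes tested. Slc16a1 was next, with a mean above 57.3% of the genes tested, followed by Slc16a3 (38.7%), Hcar2 (26.6%) and Slc16a7 (8.83%). Slc16a1 exceeded Slc16a3 in 6 of 7 libraries and not in control replicate 3, and Slc16a3 exceeded Hcar2 in 6 of 7 and not in the third treated library. Hcar2 lay above Slc16a7, and Slc16a7 above Ffar2, in all 7 libraries. Ffar2, Slc5a8 and Ffar3 stayed under 1 TPM in every library and were not tested, since the test required at least 1 TPM in at least 3 libraries. Ffar2 exceeded Slc5a8 in only 5 of 7 libraries, so the order of these 2 was not separable from their spread.

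**Figure D1:**
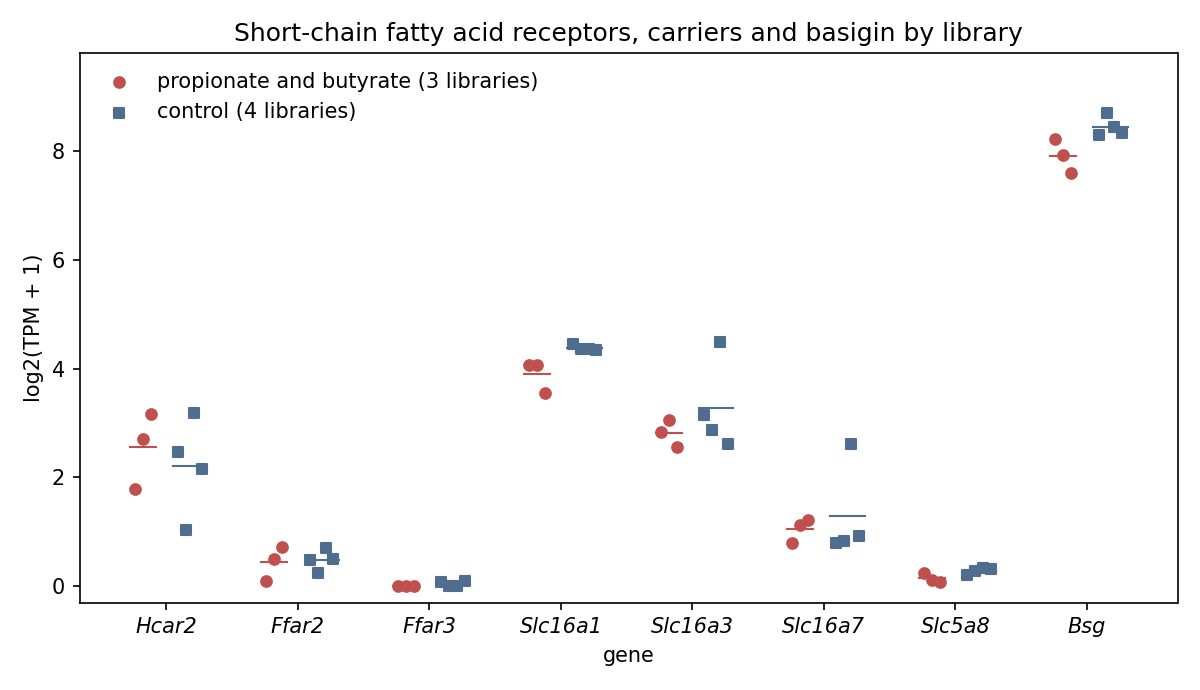
Level of each of the 8 genes as log2(TPM + 1), with circles for the 3 treated libraries, squares for the 4 control libraries and short lines for group means on that scale. Slc16a1 and Bsg have no overlap between the groups, Slc16a3 and Slc16a7 have 1 high control library, and Ffar2, Ffar3 and Slc5a8 lie near 0.

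Among the receptors, only Hcar2 passed the filter on low values. Hcar2, the receptor for nicotinic acid that also binds butyrate and the ketone body beta-hydroxybutyrate, had 2.45, 5.50 and 7.96 TPM in the treated libraries, against 4.55, 1.06, 8.14 and 3.46 TPM in control replicates 1 to 4. The groups overlapped over most of their range, with the lowest and the highest value both in control libraries. Hcar2 averaged 5.30 ± 2.76 TPM (SD, n = 3) in treated and 4.30 ± 2.94 TPM (SD, n = 4) in control libraries. The log2 fold change, on the log2(TPM + 1) scale, was 0.33 (95% interval -0.56 to 1.23, SE 0.42), with a limma Benjamini-Hochberg adjusted p of 0.610 over all genes. It was 0.03 without the third treated library and -0.06 without control replicate 2, the only removal of 1 library that reversed its sign.

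Ffar2, which binds acetate, propionate and butyrate, had 0.07, 0.42 and 0.65 TPM in treated and 0.39, 0.18, 0.62 and 0.41 TPM in control libraries. These values were spread thinly over 6 transcript rows, of which the leading one held 32.5% of the gene's mean TPM and was at 0 in 4 of the 7 libraries. Ffar3, the related receptor that favours propionate and butyrate, was listed at 0 in all 3 treated libraries and at 0.06, 0, 0 and 0.07 TPM in control replicates 1 to 4. With no filter on low values, the log2 fold change was -0.03 for Ffar2 (limma, Benjamini-Hochberg adjusted p = 0.925) and -0.05 for Ffar3 (adjusted p = 0.506). Both receptors lay below the level at which the libraries could be compared.

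Slc16a1, the proton-coupled monocarboxylate transporter MCT1, was the most abundant of the 4 carriers. Its level was 15.7, 15.8 and 10.7 TPM in the treated libraries, against 20.9, 19.6, 19.6 and 19.4 TPM in the controls. All treated libraries lay below all control libraries, and the 4 controls lay within a narrow band. The means were 14.1 ± 2.93 TPM (SD, n = 3) in treated and 19.9 ± 0.70 TPM (SD, n = 4) in control libraries. The log2 fold change was -0.49 (95% interval -0.92 to -0.06, SE 0.20), with an unadjusted p of 0.0297 from limma's model over all genes and a Benjamini-Hochberg adjusted p of 0.123, so the difference was not called.

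Bsg, the chaperone of that carrier, had the same kind of pattern at a level over 10 times higher. It stood at 296, 241 and 192 TPM in treated libraries, against 313, 417, 346 and 323 TPM in controls. The groups again did not overlap, although treated replicate 1 and control replicate 1 were close. Bsg averaged 243 ± 51.6 TPM (SD, n = 3) in treated and 349 ± 47.0 TPM (SD, n = 4) in control libraries. The log2 fold change was -0.54 (95% interval -0.98 to -0.09, SE 0.21; limma unadjusted p = 0.0224, Benjamini-Hochberg adjusted p = 0.104). It passed the threshold without treated replicate 1, at -0.69 with a limma Benjamini-Hochberg adjusted p of 0.0360. Under that setting limma called 22.9% of all genes, and the median log2 fold change of all genes was -0.35. A single transcript row held 96.4% to 97.9% of Bsg in every library, so the pattern was that of this one row. The ratio of Bsg to Slc16a1 TPM was 15.2 to 18.8 in treated and 14.95 to 21.2 in control libraries, with the treated range inside the control range.

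These 2 differences have to be read against the whole table. The median log2 fold change of all 14967 genes was -0.24, and 25.7% of genes had all treated libraries below all controls, with 4.82% the other way round. Relative to that median, Slc16a1 was at -0.24 and Bsg at -0.29. The third treated library had the lowest Slc16a1 and Bsg of all 7. Without it the log2 fold changes were -0.31 and -0.38, against a median of -0.08 over all genes, which again left -0.23 and -0.30. With median-of-ratios scaling, which centres the libraries on their shared genes, Slc16a1 was at 14.9, 16.0 and 15.6 scaled TPM in treated and at 19.5, 18.3, 17.3 and 18.0 in control libraries. Bsg was at 279, 243 and 281 in treated and at 291, 389, 305 and 300 in control libraries on that scale. Both genes still had no overlap there, a pattern that 16.3% of all tested genes showed. The log2 fold changes were then -0.22 for Slc16a1 and -0.26 for Bsg, and limma gave Benjamini-Hochberg adjusted p of 0.0989 for the carrier and 0.172 for the chaperone.

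**Figure D2:**
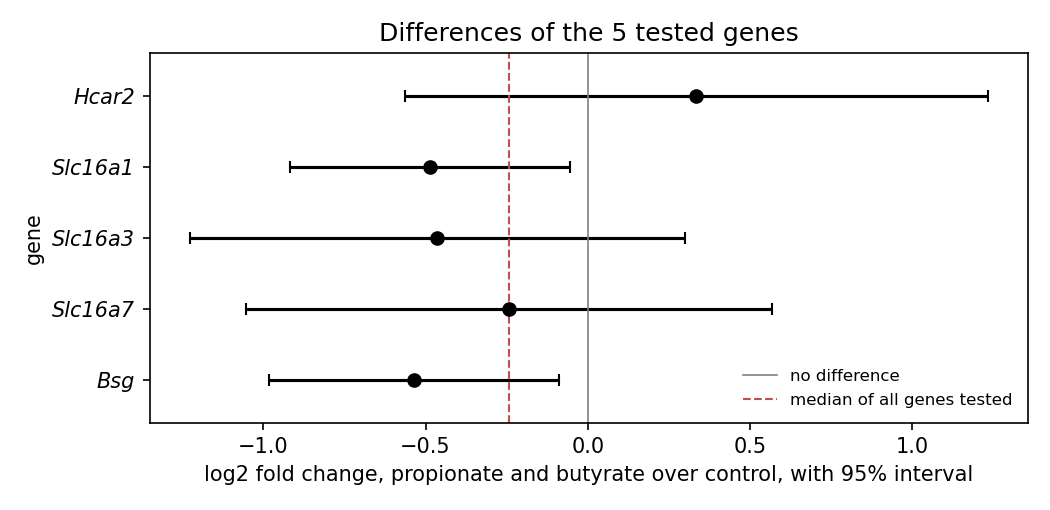
Log2 fold change of treated over control for the 5 tested genes on the log2(TPM + 1) scale, with bars for the 95% interval from limma; the grey line is at 0 and the dashed line at the median of all genes, -0.24. The intervals of Slc16a1 and Bsg exclude 0 and include the median of all genes, and those of the other 3 include both.

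Taking the set as a whole, 0 of the 5 tested genes were called by limma at an adjusted p under 0.05 in either direction, where 11.9% of all tested genes were called (4.3% higher and 7.59% lower in treated libraries). At an unadjusted p under 0.05 there were 2 of the 5, Slc16a1 and Bsg, against 30.5% of all genes. The median log2 fold change was -0.46 over the 5 tested genes and -0.24 over all genes. Calls of all genes were 36.1% higher ones with TPM as deposited and 58.9% higher ones with median-of-ratios scaling. Array weights, which let limma down-weight libraries, called both Slc16a1 (Benjamini-Hochberg adjusted p = 0.0172) and Bsg (0.0120), under a setting that called 43.2% of all genes. Treated libraries had 8.64 times the summed T cell markers of controls, and their summed macrophage, epithelial and mesothelial, and fibroblast markers were 0.446-fold, 0.478-fold and 0.520-fold. The summed erythroid markers were 0.192-fold and the summed endothelial markers 0.659-fold those of controls. By limma 2 of the 11 macrophage, 6 of 7 tested epithelial and mesothelial and 4 of 5 tested fibroblast markers fell, as did 4 of 4 tested erythroid and 3 of 4 tested endothelial markers. Plvap, 1 of those endothelial markers, was at 0.15 to 0.28 TPM in treated libraries and passed the filter on low values through controls alone. The part of all these cell types in the values of Slc16a1 and Bsg was not tested.

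Slc16a3, the carrier MCT4 that exports lactate from glycolytic cells, had 6.11, 7.30 and 4.88 TPM in treated libraries. In control replicates 1 to 4 it had 7.85, 6.30, 21.5 and 5.09 TPM. Control replicate 3 stood well above the other 6 libraries, which overlapped. The log2 fold change was -0.46 (95% interval -1.23 to 0.30; limma, Benjamini-Hochberg adjusted p = 0.388) and -0.06 without control replicate 3 (adjusted p = 0.914). The table lists 8 transcript rows for Slc16a3, and 2 of them carried most of the excess, with 10.1 and 7.28 TPM in control replicate 3 against at most 3.39 and 1.79 TPM elsewhere. The ratio of Slc16a1 to Slc16a3 TPM was 2.17 to 2.57 in treated and 0.913 to 3.80 in control libraries, lowest in control replicate 3.

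Slc16a7, the high-affinity carrier MCT2, was low, with 0.74, 1.17 and 1.34 TPM in treated libraries and 0.74, 0.77, 5.15 and 0.89 TPM in controls. Again control replicate 3 stood apart, and the other 6 libraries overlapped. One of its 6 transcript rows was at 3.51 TPM in control replicate 3 and at 0 in the other 6 libraries. The log2 fold change was -0.24 (95% interval -1.05 to 0.57; limma, Benjamini-Hochberg adjusted p = 0.688), equal to the median of all genes. Without control replicate 3 the gene did not pass the filter. Slc16a1 made up 63.2% to 69.7% of the summed TPM of Slc16a1, Slc16a3 and Slc16a7 in treated libraries and 42.4% to 76.4% in control libraries, with the lowest share in control replicate 3.

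**Figure D3:**
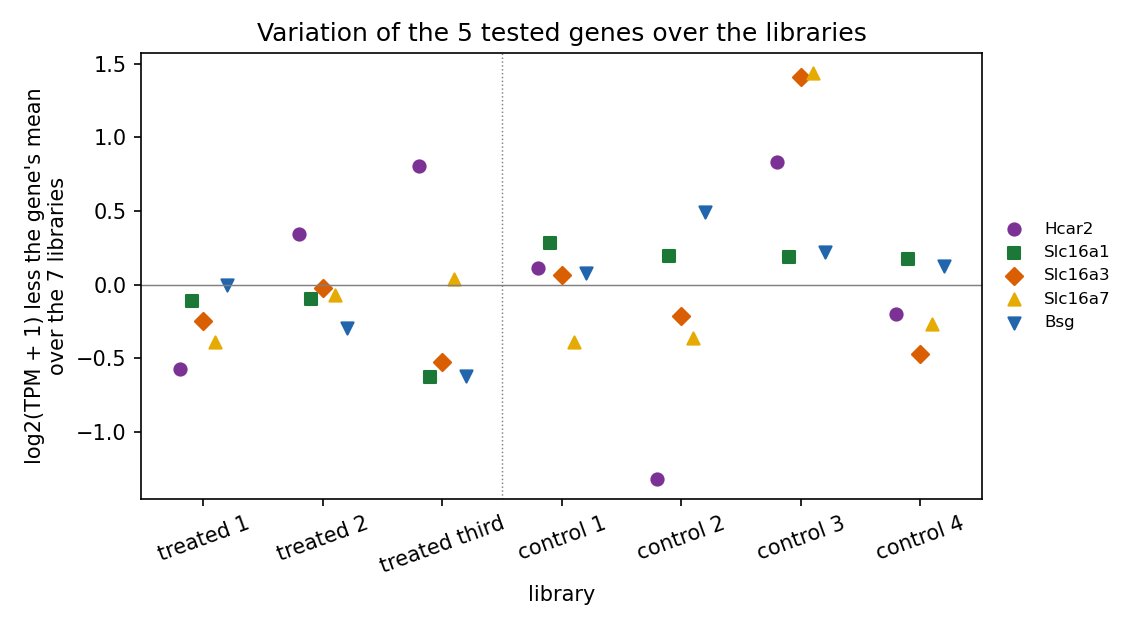
Each tested gene's log2(TPM + 1) less its own mean over the 7 libraries, by library, treated on the left and control on the right. Slc16a3 and Slc16a7 peak in control replicate 3, where Hcar2 is only just above its value in the third treated library. Slc16a1 and Bsg are above their means in all 4 controls.

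Slc5a8, the sodium-coupled carrier of short-chain fatty acids in colon and kidney, was listed close to 0. It had 0.19, 0.08 and 0.06 TPM in treated and 0.16, 0.22, 0.26 and 0.25 TPM in control libraries. The groups overlapped, and with no filter the log2 fold change was -0.14 (limma, Benjamini-Hochberg adjusted p = 0.232). Control replicate 3 thus had the highest level of Hcar2, Slc16a3, Slc16a7 and Slc5a8 among the 7 libraries. It led only narrowly for Hcar2 (8.14 against 7.96 TPM in the third treated library) and Slc5a8 (0.26 against 0.25 TPM in control replicate 4). The share of all genes that peak in this library was not counted. In it the summed neutrophil markers were at 431 TPM, against 49.6 to 117 TPM in treated and 19.2 to 118 TPM in the other control libraries. S100a8, an abundant neutrophil and monocyte transcript, was at 154 TPM there. Ly6g, which defines mouse neutrophils, was at 0.30 TPM there and was highest in control replicate 4, at 1.63 TPM. None of the 7 neutrophil markers was at 0 in every library. The summed macrophage markers were also highest in control replicate 3, at 14820 TPM. The part of neutrophils or macrophages in the levels of the 4 receptor and carrier genes was not tested.

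Promoter sequences are shown for 2 carriers that were detected (Slc16a1, Slc16a3), the carrier listed close to 0 (Slc5a8) and the receptor listed at 0 in the treated libraries (Ffar3). The reference table held promoters of 5 of the 8 genes; Bsg, Hcar2 and Slc16a7 had no entry. Each is the 300 bases from 250 before to 50 after a RefSeq start in GRCm38.p6, an earlier build than that of the files. Capitals mark ACGTG on either strand, also where it lies inside the E-box CACGTG, and the GC box GGGCGG on either strand.
Slc16a1 (chr3:104638414-104638713, plus strand): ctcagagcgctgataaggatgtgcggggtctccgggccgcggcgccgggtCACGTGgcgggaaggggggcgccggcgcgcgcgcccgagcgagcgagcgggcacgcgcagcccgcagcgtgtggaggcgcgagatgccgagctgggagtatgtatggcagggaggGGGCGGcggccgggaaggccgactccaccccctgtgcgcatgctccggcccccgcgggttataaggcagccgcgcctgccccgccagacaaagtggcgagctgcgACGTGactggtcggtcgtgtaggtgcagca
Slc16a3 (chr11:120948817-120949116, plus strand): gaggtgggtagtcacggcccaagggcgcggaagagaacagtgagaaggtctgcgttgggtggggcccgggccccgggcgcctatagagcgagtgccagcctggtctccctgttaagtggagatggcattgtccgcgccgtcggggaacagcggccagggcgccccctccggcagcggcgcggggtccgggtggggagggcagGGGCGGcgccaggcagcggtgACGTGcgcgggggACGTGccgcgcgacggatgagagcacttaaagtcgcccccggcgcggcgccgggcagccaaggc
Slc5a8 (chr10:88885742-88886041, plus strand): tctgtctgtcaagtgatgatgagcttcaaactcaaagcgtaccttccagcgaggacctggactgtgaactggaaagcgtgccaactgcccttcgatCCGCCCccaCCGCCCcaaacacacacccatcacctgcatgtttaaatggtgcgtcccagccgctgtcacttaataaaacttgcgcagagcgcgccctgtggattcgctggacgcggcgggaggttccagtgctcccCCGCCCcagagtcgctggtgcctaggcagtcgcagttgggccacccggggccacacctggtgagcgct
Ffar3 (chr7:30856129-30856428, minus strand): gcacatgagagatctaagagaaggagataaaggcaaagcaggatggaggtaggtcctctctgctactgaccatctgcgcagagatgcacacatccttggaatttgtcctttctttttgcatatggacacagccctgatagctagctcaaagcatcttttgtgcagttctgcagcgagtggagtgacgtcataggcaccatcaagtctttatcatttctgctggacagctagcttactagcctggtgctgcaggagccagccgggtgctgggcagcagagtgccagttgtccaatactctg
The Slc16a1 window held 42 CG dinucleotides, more than 97% of 32851 promoter windows, and the Slc16a3 window held 36, more than 93.8%. Slc5a8 had 20 and Ffar3 had 4, beside a median of 7. ACGTG was found at 2 places in Slc16a1, 1 of them within CACGTG, at 2 places in Slc16a3 and at 0 in Slc5a8 and Ffar3, and in 19.6% of all windows. Ffar2, under 1 TPM in every library, has 4 start sites whose windows are not printed. Its start site 1 held ACGTG at 1 place, within CACGTG, and its overlapping windows 3 and 4 each held GGGCGG at 1 place. CACGTG was in 7.15% of windows. GGGCGG was found once each in Slc16a1 and Slc16a3, at 3 places in Slc5a8 and at 0 in Ffar3, and in 35.7% of all windows. These matches are letters in a window and show no factor binding.

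The genes whose profiles over the 7 libraries lay closest to each tested gene were listed as a description, by the Euclidean distance between profiles of log2(TPM + 1) centred on each gene's mean. For Slc16a1 they were Ppp5c, C1galt1c1 and Naxd, at distances of 0.088 to 0.094, against a length of 0.771 for the Slc16a1 profile itself. For Bsg they were Bckdha, Pebp1 and Gstp1, at 0.056 to 0.071 against 0.886. The profile of Slc16a3 was nearest to Slc15a3, Dnajc12 and Slc11a1 (0.361 to 0.407 against 1.61), and that of Slc16a7 to Ltb4r1, Hpse and Cd302 (0.337 to 0.411 against 1.60). All 6 of these genes had their highest value in control replicate 3. Hcar2 was nearest to Fabp7, Pycard and Ccl24, at 0.597 to 0.646 against 1.89, so its neighbours were less close. All genes share the same 7 libraries and their scaling.

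Around these 8 genes, 56 symbols in 5 lists covered the rest of the SLC16 family, other carriers, other metabolite receptors, G protein and arrestin signalling, and lactate, pyruvate and proton handling. Of these, 40 passed the filter, 3 rose and 5 fell by limma (20% called, beside 11.9% of all genes), and their median log2 fold change was -0.25, beside -0.24 for all genes. Each call was lost when no filter on low values was applied, where 0 of 51 were called by limma and 19 had an unadjusted p under 0.05. Under that setting only 7 of all 29687 genes (0.0236%) were called, and 20.2% had an unadjusted p under 0.05. The loss was thus not particular to these genes.

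Embigin (Emb), the chaperone that pairs with MCT2, was at 43.9, 73.3 and 18.4 TPM in treated and at 16.9, 27.6, 22.5 and 18.9 TPM in control libraries. Its log2 fold change was 0.86 (limma, Benjamini-Hochberg adjusted p = 0.111), with the third treated library among the controls. Of the 2 other carriers tested, Abcg2, an efflux pump, fell by 0.73 on the log2 scale (limma, Benjamini-Hochberg adjusted p = 0.0489), with 3.44 to 5.76 TPM in treated and 7.04 to 9.83 TPM in control libraries. That call was lost under 12 of 19 alternatives, among them the removal of treated replicate 2, the third treated library or any 1 control library (adjusted p from 0.0842 to 0.141).

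Of the 3 tested receptors for other metabolites, 1 rose and 1 fell. Gpr132, a receptor described as sensing lysolipids, protons and lactate, had 17.5, 34.7 and 9.60 TPM in treated libraries, against 3.50, 2.72, 5.54 and 4.23 TPM in controls. The groups did not overlap, and 4.82% of all tested genes likewise had every treated library above every control. Gpr132 rose by 1.97 on the log2 scale (SE 0.34; limma, Benjamini-Hochberg adjusted p = 0.00219). Ffar4, the receptor of long-chain fatty acids, had 0.36, 0.45 and 0.67 TPM in treated libraries, against 1.48, 3.88, 2.92 and 2.20 TPM in controls. It fell by 1.24 (SE 0.26; limma, Benjamini-Hochberg adjusted p = 0.00755), on a scale that understates changes of low genes. Ffar4 was under 1 TPM in all 3 treated libraries and passed the filter on low values through the 4 controls alone, and with no filter the limma Benjamini-Hochberg adjusted p was 0.0800. Gpr35 did not pass the test (log2 fold change -0.16), Ffar1 and Gpr84 did not pass the filter, and Hcar1, Or51e2 (older symbol Olfr78), Oxgr1 and Sucnr1 were listed at 0 in all 7 libraries.

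In the signalling list, 2 of 15 tested genes rose and 1 fell. Gng2, a G protein gamma subunit, had 16.7 to 51.8 TPM in treated and 7.59 to 9.76 TPM in control libraries, with a difference of 1.55 on the log2 scale (limma, Benjamini-Hochberg adjusted p = 0.00465). Adcy7, an adenylyl cyclase of blood cells, was at 17.4 to 47.1 TPM in treated and 12.1 to 17.1 TPM in control libraries (0.96, adjusted p = 0.0365). Gnai1, an inhibitory alpha subunit, was at 1.22 to 2.61 TPM in treated and 3.21 to 6.46 TPM in control libraries (-1.04, adjusted p = 0.0248). Leaving out treated replicate 1, treated replicate 2 or control replicate 2 ended the call of Adcy7 (adjusted p = 0.0698, 0.149 and 0.0621). Leaving out treated replicate 2, the third treated library or control replicate 2 ended that of Gnai1 (0.0653, 0.0924 and 0.0514), as did median-of-ratios scaling (0.0626) and the replicate block (0.207). The call of Adcy7 was lost under 5 of 19 alternatives, and that of Gnai1 under 7 of the 18 in which it could be fitted. The far more abundant inhibitory subunit Gnai2 was at 152 to 256 TPM in treated and 200 to 278 TPM in control libraries, with a log2 difference of -0.18 (limma, Benjamini-Hochberg adjusted p = 0.598). The sum of T cell markers was 8.64 times as high in treated as in control libraries, and Gpr132, Gng2 and Adcy7 were also higher there. The sum and these genes had the same order over the treated libraries. Among the controls, however, control replicate 3 had the lowest sum (107 TPM) and the highest value of each of these genes. The part of T cells in the levels of these genes was not tested.

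Of 12 tested partners in lactate, pyruvate and proton handling, 1 fell and 0 rose. Car12, a membrane carbonic anhydrase, had 3.37 to 7.27 TPM in treated and 8.95 to 18.9 TPM in control libraries, with a log2 difference of -1.07 (limma, Benjamini-Hochberg adjusted p = 0.0248). That call was lost under 6 of 19 alternatives, among them leaving out the third treated library (adjusted p = 0.109) or control replicate 2 (0.0575), median-of-ratios scaling (0.0538) and the replicate block (0.165). Ldha and Ldhb, the lactate dehydrogenase subunits, were at -0.56 and -0.62 on the log2 scale (limma, Benjamini-Hochberg adjusted p = 0.119 and 0.0823). Mpc1, a subunit of the mitochondrial pyruvate carrier, was at -0.54 (limma, Benjamini-Hochberg adjusted p = 0.0840). These 3 uncalled differences, named after their values were seen, were close in size to those of Slc16a1 and Bsg. The 12 tested partners ranged from -1.07 to 0.56, with a median log2 fold change of -0.39.

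**Figure D4:**
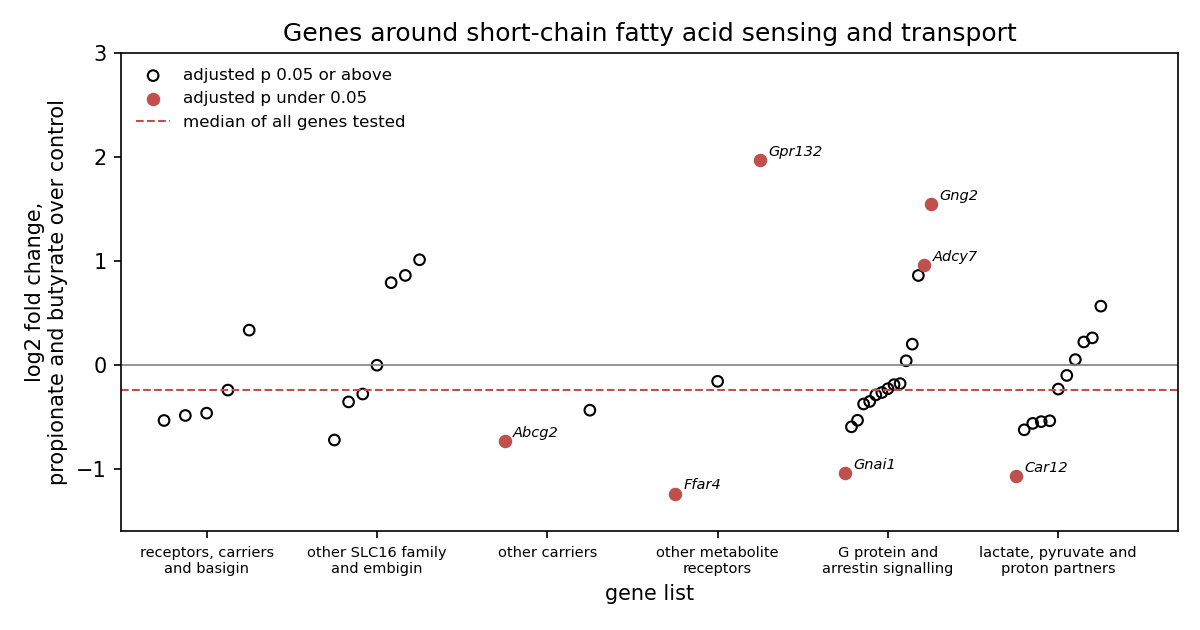
Log2 fold change of treated over control on the log2(TPM + 1) scale for the tested genes of the receptor and carrier set and of 5 surrounding lists, leaving out genes not reported here, 1 point per gene, filled where the limma adjusted p was under 0.05. The set itself has 0 filled points; Gpr132 at 1.97 is the highest and Ffar4 at -1.24 the lowest of the filled genes.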

How the data were processed

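Expression was measured by stranded poly(A) RNA sequencing in 7 libraries, 3 treated and 4 control. The deposited table holds TPM per transcript, in 149132 rows that carry gene symbols; the steps behind the TPM are not stated in the sources used here. Per the submitters' processing notes, fastp, HISAT2, StringTie and the build mm39 were used, without roles. Columns were matched to samples by name; 1 treated column carries a number that no treated sample has and is called the third treated library. Other columns of per-library values numbered 0.

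TPM was summed per symbol, leaving out 1001 rows without one. Genes with at least 1 TPM in at least 3 libraries (14967) were compared on log2(TPM + 1) in R 4.3.3 with limma 3.58.1, an intensity trend and Benjamini-Hochberg adjustment over all of them, called under 0.05. The model was tested on simulated data. The 8 genes and all lists were chosen with earlier results of these data known. Named genes were the 8, at most 3 called genes of each surrounding list with the smallest p, the 3 nearest profiles of each tested gene (predicted and mitochondrially encoded genes left out), and marker genes; Emb, Gpr35, Ffar1, Gpr84, Gnai2, Ldha, Ldhb, Mpc1 and the genes under other observations were named after their values were seen, as were those listed at 0 throughout. Some results on surrounding genes are not reported here. Alternatives changed the pseudocount, filter, scaling, variance model, library weights, replicate block and transcript rows, and left out libraries.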

Additional observations from a re-analysis of the deposited data

Results flagged for a closer look

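In 26 checks of the 4 control libraries, 3 values lay far from the rest, all in control replicate 3; chance alone gives about 1 in 20. Slc16a3 was at 21.5 TPM there, against 5.09 to 7.85 TPM in the other controls. Slc16a7 was at 5.15 TPM, against 0.74 to 0.89 TPM. The summed TPM of 11 macrophage markers was 14820, against 6120 to 6958. The part of macrophages in the levels of both carriers was not tested.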

How the results depend on the processing

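Of the 8 genes, 0 were called by limma under 17 of 19 alternatives. Array weights called 2 (Slc16a1 and Bsg), and leaving out 1 library at a time gave 0 to 1 calls (Bsg, without treated replicate 1). Array weights called 43.2% of all genes, and the fit without treated replicate 1 called 22.9%. Slc16a1 and Bsg kept a negative log2 fold change under all 19 alternatives, from -0.58 to -0.22 and from -0.69 to -0.26. Hcar2 ranged from -0.0571 to 0.72 when 1 library was left out, negative only without control replicate 2. Slc16a3 ranged from -0.69 to -0.06, and was at 0.0681 when the third treated library and control replicate 3 were left out together, an alternative chosen after the data were seen. Slc16a7 could be fitted under 12 of the 19. Over all genes, calls were 643 higher and 1136 lower as reported. They were 388 to 794 higher and 585 to 2909 lower when 1 library was left out. With no filter there were 3 and 4, with array weights 2246 and 4221. Median-of-ratios scaling gave 1377 higher, leaving out mitochondrially encoded genes 1871 lower, and leaving out both libraries named above 267 lower. Of the surrounding genes 8 were called as reported, 4 to 13 when 1 library was left out and 25 with array weights. With no filter limma called 0 of 51, beside 0.0236% of all genes. There 19 of the 51 had an unadjusted p under 0.05, beside 20.2% of all genes. The replicate numbers 1 and 2 occur in both groups, and deviations of same-numbered libraries from their group means had correlations of -0.02 and -0.09. These 2 values cannot decide whether such libraries share a batch or are paired, and the labels state neither. A replicate block over these 4 libraries called 0 of the 4 set genes that could be tested and 4 of 39 surrounding genes. Over all genes it called 503 higher and 135 lower (4.53%). Of its calls 78.8% were higher ones, against 36.1% as reported. TPM keeps no depth, so counting error behind the low receptor values is unknown.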

Other observations

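Members of the SLC16 family outside the set differed in both directions without being called, and are given here after their values were seen. Slc16a6, a carrier linked to ketone body export in zebrafish liver, had 7.14, 13.6 and 6.50 TPM in treated libraries, against 3.79, 1.75, 7.81 and 3.48 TPM in controls, with control replicate 3 inside the treated range (log2 fold change 1.01; limma, Benjamini-Hochberg adjusted p = 0.0687). Slc16a11 had 1.56, 3.92 and 1.09 TPM in treated libraries, against 1.00, 1.22, 0.28 and 0.54 TPM in controls (0.79, adjusted p = 0.103). Slc16a13 had 1.67, 1.89 and 1.34 TPM in treated libraries, against 2.37, 2.65, 5.08 and 3.70 TPM in controls, with no overlap (limma, Benjamini-Hochberg adjusted p = 0.0733 at -0.72). Of all tested genes, 25.7% likewise had every treated library below every control. Slc16a10, an aromatic amino acid carrier, had 9.06, 9.54 and 7.63 TPM in treated libraries, against 8.49, 7.49, 10.4 and 8.75 TPM in controls, a log2 fold change near 0 (95% interval -0.45 to 0.44).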
